A study of Mus musculus with 6 samples.

Results

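The actins are the globular proteins that polymerize into the thin filaments of muscle and into the cytoskeleton of all cells. Mammals have 6 actin genes, namely *Acta1* (skeletal α-actin), *Actc1* (cardiac α-actin), *Acta2* (vascular smooth muscle α-actin), *Actg2* (enteric smooth muscle γ-actin), *Actb* (cytoplasmic β-actin) and *Actg1* (cytoplasmic γ-actin). In the rodent ventricle, *Actc1* encodes the main sarcomeric actin of the adult cardiomyocyte (CM), whereas *Acta1* and *Acta2* are active in the developing heart and *Acta1* is known as a gene that returns under load. Muscle actin genes are controlled in part by serum response factor (SRF), which binds a short A- and T-rich element called the CArG box.

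Actin transcripts were examined by RNA-seq in CMs isolated from the ventricles of adult C57BL/6 mice aged 8 to 12 weeks. The 3 CtrlCre mice were αMHC-Cre positive with wild-type *Cpt1b*, and the 3 Cpt1bcKO mice were αMHC-Cre positive with both *Cpt1b* alleles floxed. Cre was therefore present in both groups, and the αMHC promoter that drives it is active in CMs from embryonic stages on. *Cpt1b* encodes the muscle carnitine palmitoyltransferase that admits long-chain fatty acids to mitochondria. The comparison asks how the set of actin transcripts differs when *Cpt1b* is inactivated in CMs.

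Members were found by an exact match of the gene symbol, and 5 of the 6 actins had a row among the 16448 genes of the table. *Actg2* had no row and was not analysed here. All 5 passed the filter for testing (3 or more samples with 10 or more), which left 11364 genes. Values are normalized counts, that is, reads counted on a gene and divided by a size factor of the sample. Log2 fold changes are Cpt1bcKO minus CtrlCre on the log2(value + 1) scale, which understates changes of low genes, and a gene was called at an adjusted *P* value under 0.05 from limma.

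Without mitochondrial and rRNA genes, the normalized counts summed to between 3146414 and 3551692 per sample. The mitochondrial rRNA gene *mt-Rnr2* held 63.2% to 64.6% of the full sum in CtrlCre samples and 61.8%, 72.6% and 80.8% in Cpt1bcKO samples 1, 2 and 3. The targeted *Cpt1b* had 893 to 1861 normalized counts in CtrlCre and 211 to 353 in Cpt1bcKO samples (log2 fold change −2.27, SE 0.267, adjusted *P* = 0.00338), and lost its call with a single prior variance for all genes (adjusted *P* = 0.0563).

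The coding sequences of the actins are alike enough that reads could in principle be misassigned, so the start of 3 muscle actin reading frames is shown. Each run is the first 75 coding bases, read from the start codon on the minus strand of GRCm38 within 1 exon. One run is as long as a read of this study. Capitals mark bases that differ from *Actc1*.

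Actc1, chr2:114051957-114052031: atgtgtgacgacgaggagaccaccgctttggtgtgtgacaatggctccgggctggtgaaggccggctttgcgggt

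Acta1, chr8:123893623-123893697: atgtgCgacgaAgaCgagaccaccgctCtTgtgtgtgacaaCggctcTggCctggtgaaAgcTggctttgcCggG

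Acta2, chr19:34252479-34252553: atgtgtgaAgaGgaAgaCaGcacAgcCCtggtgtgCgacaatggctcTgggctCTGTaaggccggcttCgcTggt

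*Acta1* differed from *Actc1* at 12 of these 75 bases and *Acta2* differed at 16. Over the whole reading frame of 1131 bases, *Acta1* and *Actc1* shared 86.3% of bases (155 substitutions), and the longest stretch they had in common was 29 bases. A 75-base read placed by exact match could therefore not fall on both. The authors' alignment allowed some mismatches, and windows alike within that limit were not counted. Among all reference transcripts, 1366 of the 1372 read-length windows of *Acta1* (99.56%) occurred in no other gene, and 3 of the other 6 occurred in *Actb*. Every window of *Actc1* and *Acta2* was unique, as were 97.4% of those of *Actb*. *Actg1* was the exception with 45.53%, because its sequence recurs in 10 other genes, of which 9 are pseudogenes. Reads on several regions were excluded by the authors, so the values of *Actg1* are an uncertain, low estimate of its level. No exon of the 5 genes overlapped an exon on the other strand. On its own strand, *Actg1* shared 147 exon bases with *Gm23419* and *Mir6935*, and the authors also excluded reads that overlap multiple genes.

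*Acta1*, the skeletal α-actin, was the member with the largest change. It lies on the minus strand of chromosome 8 (ENSMUSG00000031972, GRCm38, chr8:123891769-123894751). It had 773, 1177 and 814 normalized counts in CtrlCre samples 1, 2 and 3, and 15185, 10270 and 7005 in Cpt1bcKO samples 1, 2 and 3. All 3 Cpt1bcKO samples lay far above all CtrlCre samples, and the lowest Cpt1bcKO value was 5.95 times the highest CtrlCre value. The means were 921 ± 222 and 10820 ± 4118 (SD, n = 3 each), a ratio of 11.7. The log2 fold change was 3.51 (SE 0.264, 95% confidence interval 2.92 to 4.09, adjusted *P* = 0.000221). *Acta1* ranked number 7 of the 11364 genes by log2 fold change and number 4 by *P* value.

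The spread of *Acta1* among Cpt1bcKO mice was wide. The highest value was 2.17 times the lowest, against 1.52 times in CtrlCre. Cpt1bcKO sample 1, which had the highest *Acta1*, had the lowest share of *mt-Rnr2*, and sample 3, which had the lowest *Acta1*, had the highest share; the part of this in the spread was not tested. In bulk RNA, a change in the number of CMs that carry a transcript and a change in its amount per cell cannot be told apart.

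*Acta1* was 1 of 5 actins called, where 1.57% of all genes tested were called in either direction and 0.66% were called higher (75 genes higher and 103 lower). With samples rescaled to the total of nuclear genes outside rRNA, the balance of all calls turned to 102 higher (0.907%) and 74 lower (0.658%). *Acta1* kept its call under all 14 alternative settings, with log2 fold changes from 3.23 to 3.79.

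**Figure D1:**
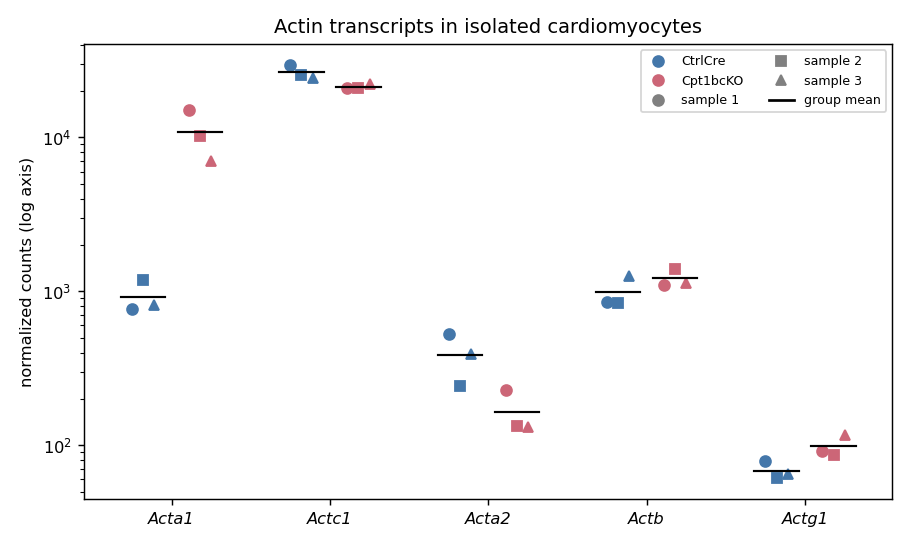
Normalized counts (log axis) of the 5 actins in each of the 6 samples, with CtrlCre in blue, Cpt1bcKO in red, marker shapes for the sample number and black lines for group means (n = 3). *Acta1* lies at 773 to 1177 in CtrlCre and at 7005 to 15185 in Cpt1bcKO samples, whereas the groups of *Actb* overlap.

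*Actc1*, the cardiac α-actin (ENSMUSG00000068614, minus strand, chr2:114047282-114052887), was the most abundant actin per length in every sample. It had 29707, 25300 and 24426 normalized counts in CtrlCre samples and 20951, 20806 and 22122 in Cpt1bcKO samples. The groups did not overlap, with means of 26478 ± 2831 and 21293 ± 722 (SD, n = 3 each). *Actc1* differed by a log2 fold change of −0.31 (SE 0.166, 95% confidence interval −0.68 to 0.06), which did not pass the test (adjusted *P* = 0.440). It was not called under any of the 14 alternatives, where log2 fold changes ran from −0.37 to −0.20. Groups without overlap were seen in 4 of the 5 actins and in 18.7% of all genes tested.

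*Acta2*, the smooth muscle α-actin (ENSMUSG00000035783, minus strand, chr19:34241090-34255336), had 526, 244 and 391 normalized counts in CtrlCre samples and 230, 134 and 132 in Cpt1bcKO samples. The groups came close without overlapping, since the lowest CtrlCre value of 244 stood just above the highest Cpt1bcKO value of 230. The log2 fold change was −1.20 (SE 0.295, 95% confidence interval −1.86 to −0.55), with an unadjusted *P* of 0.00207 and an adjusted *P* of 0.0835 from limma, short of the threshold. Without Cpt1bcKO sample 1 it was called (log2 fold change −1.46, adjusted *P* = 0.0217, in a fit that called 1.51% of all genes lower), and over the 6 fits that each left out 1 sample the adjusted *P* ran up to 0.351.

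Smooth muscle cells and pericytes express *Acta2*, and their markers were therefore read beside it. *Myh11*, the smooth muscle myosin heavy chain, had 14, 117 and 217 normalized counts in CtrlCre samples and 155, 123 and 92 in Cpt1bcKO samples. *Rgs5*, a pericyte marker, had 463, 1213 and 1402 against 1172, 1107 and 824. Both were lowest in CtrlCre sample 1, the sample in which *Acta2* was highest. *Tagln*, which encodes the abundant smooth muscle protein transgelin, had at most 5 normalized counts in any sample, and *Cnn1* (calponin) at most 13.

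Of 12 markers of these cells, 8 were tested, of which 4 were higher and 4 lower, and the median stood at −0.12 on the log2 scale beside −0.0013 for all genes. This median rested on single samples, at −0.47 without CtrlCre sample 1, −0.29 without Cpt1bcKO sample 1, 0.26 without CtrlCre sample 3 and 0.09 without Cpt1bcKO sample 3. The only one called, where 0.906% of all genes were called lower, was *Abcc9*, a potassium channel subunit that CMs also express, with 2839, 2867 and 2839 normalized counts in CtrlCre samples and 1579, 1597 and 1739 in Cpt1bcKO samples (log2 fold change −0.80, adjusted *P* = 0.0123). It lost the call without CtrlCre sample 2 (adjusted *P* = 0.0644), CtrlCre sample 3 (0.0693) or Cpt1bcKO sample 2 (0.0923), and with a single prior variance (0.109). The summed level of the list was 4621 to 5858 in CtrlCre and 3609 to 3947 in Cpt1bcKO samples, of which *Abcc9* and *Synpo2* (1170, 1103 and 994 against 764, 757 and 753) made up a large part. Without these 2, a choice made after their values were seen, the other 10 summed to 612, 1614 and 2025 in CtrlCre and 1604, 1505 and 1117 in Cpt1bcKO samples, and the groups overlapped. The part of these cells in the values of *Acta2* was not tested.

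**Figure D2:**
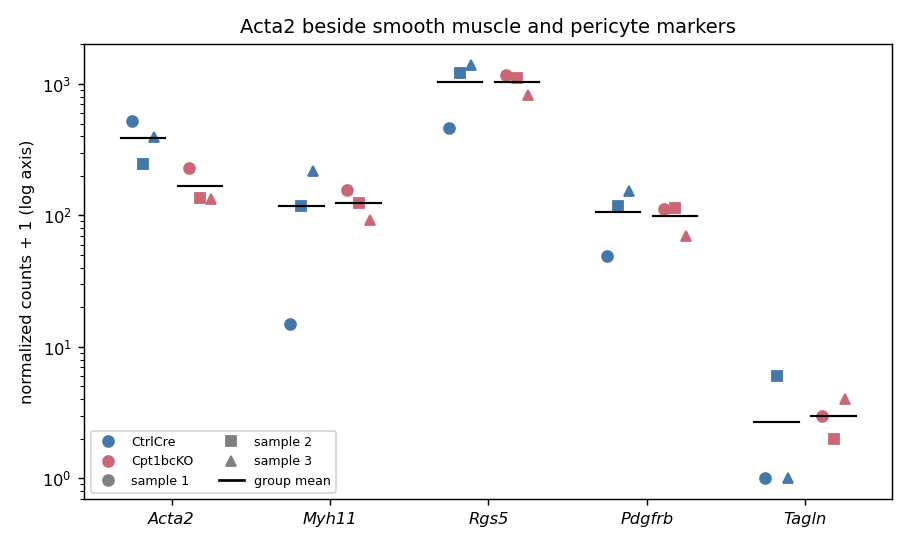
Normalized counts plus 1 (log axis) of *Acta2* and 4 markers of smooth muscle cells and pericytes per sample, with colours for the group, shapes for the sample number and black lines for group means. CtrlCre sample 1 (blue circle) is highest for *Acta2* at 526 and lowest for *Myh11* at 14 and *Rgs5* at 463.

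Neither cytoplasmic actin was called. *Actb* (ENSMUSG00000029580, minus strand, chr5:142903115-142906754), the β-actin of the cytoskeleton, had 850, 836 and 1263 normalized counts in CtrlCre samples and 1107, 1388 and 1139 in Cpt1bcKO samples. The groups overlapped, because CtrlCre sample 3 exceeded Cpt1bcKO samples 1 and 3. The log2 fold change was 0.32 (SE 0.184, 95% confidence interval −0.09 to 0.73, adjusted *P* = 0.471). It ran from 0.22 to 0.52 when 1 sample was left out.

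*Actg1* (ENSMUSG00000062825, minus strand, chr11:120345690-120348542), the cytoplasmic γ-actin, was the actin with the lowest level per length. It had 79, 61 and 65 normalized counts in CtrlCre samples and 92, 87 and 116 in Cpt1bcKO samples. The groups did not overlap. The log2 fold change of 0.52 (SE 0.210, 95% confidence interval 0.05 to 0.98) did not pass after adjustment (unadjusted *P* = 0.0327, adjusted *P* = 0.299, limma). Both stayed uncalled under each of the 14 alternatives.

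Non-CMs are rich in cytoplasmic actin, and most of the fibroblast and endothelial markers had positive log2 fold changes. The summed level of 10 fibroblast markers was 665, 965 and 1009 in CtrlCre samples and 1532, 1504 and 1283 in Cpt1bcKO samples. Of the 9 tested, 8 were higher and the list's median was 1.11 on the log2 scale, or 0.60 without CtrlCre sample 1. An unadjusted *P* under 0.05 was reached by 7, all higher, against 6.66% of all genes, and 2 were called higher, against 0.66%. These were the matrix genes *Lum* (log2 fold change 1.46) and *Col1a1* (1.32), both at an adjusted *P* of 0.0143. *Lum* lost its call without CtrlCre sample 2 or 3 or Cpt1bcKO sample 2 (adjusted *P* = 0.0626, 0.0643 and 0.0720), and *Col1a1* without CtrlCre sample 3 or Cpt1bcKO sample 2 (0.0516 and 0.0859) and with a single prior variance (0.0698). *Dcn*, the fibroblast marker with the highest mean, had 196, 302 and 287 against 404, 429 and 281.

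The 10 endothelial markers were all higher and none was called. An unadjusted *P* under 0.05 was reached by 1, against 6.66% of all genes in this direction. Their median log2 fold change was 0.34. Without CtrlCre sample 1 this median was 0.014, and without CtrlCre sample 3 it was 0.53. Their sum was lowest in CtrlCre sample 1 at 1429 and lay between 2595 and 2966 in the other samples. *Kdr*, the highest of them, had 401 normalized counts in CtrlCre sample 1 and 782 to 1000 elsewhere. None of 5 tested leukocyte markers was called or had an unadjusted *P* under 0.05 in limma, which 13.9% of all genes reached. Their list of 10 summed to 105 to 162 in CtrlCre and 133 to 157 in Cpt1bcKO samples, with *Lyz2* the highest at 38 to 52. The part of non-CMs in the levels of *Actb* and *Actg1* was not tested.

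Skeletal muscle expresses *Acta1*, and its markers were therefore read beside it. The fast skeletal myosins *Myh1*, *Myh2* and *Myh4* had 1 to 7 normalized counts in every sample, and *Tnni2*, *Tnnt3*, *Actn3*, *Mybpc1*, *Mylpf*, *Myod1* and *Myog* had no row. *Atp2a1*, the calcium pump of fast fibres, had 3, 3 and 16 normalized counts in CtrlCre and 8, 2 and 23 in Cpt1bcKO samples, and *Cacna1s*, a calcium channel subunit, had 66, 31 and 60 against 35, 32 and 17. The 6 skeletal muscle markers with a row summed to 191 to 225 in CtrlCre and to 125 to 156 in Cpt1bcKO samples. *Neb*, which encodes nebulin and made up most of this sum, had 149, 156 and 110 against 75, 108 and 82.

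Markers of the labelled cell type were high in every sample. The 10 ventricular CM markers summed to 541799, 636349 and 628661 in CtrlCre and to 359410, 528901 and 583793 in Cpt1bcKO samples, with *Ttn* the highest. In Cpt1bcKO, 9 of the 10 were lower and 1 was higher, and their median was −0.38 on the log2 scale. None was called by limma, and 2 were lower at an unadjusted *P* under 0.05, as were 7.22% of all genes. Without Cpt1bcKO sample 1, 2 of them and 2.74% of all genes were called. The sum was lowest in Cpt1bcKO sample 1, the sample with the highest *Acta1*. *Ttn*, a large part of it, had 229054, 395949 and 364082 against 151007, 340512 and 360030, and was also lowest there. *Myh6*, the next highest marker, had 149899, 104814 and 110093 against 83563, 82872 and 93434, and was lowest in Cpt1bcKO sample 2. Of 6 atrial markers, *Sln* and *Bmp10* had no row and *Myl7* had 2 to 19 normalized counts. Of the 3 tested, *Nppa*, described with the SRF targets, was called higher, *Myl4* had 16, 48 and 102 against 30, 67 and 83, and *Stard10* had 77, 64 and 71 against 46, 67 and 47. The part of atrial cells in the actin values was not tested.

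Levels of different genes can be compared only per length, so normalized counts were divided by the kilobases of annotated exon of each gene (1536 bases for *Acta1*, 1618 for *Actc1*, 2196 for *Acta2*, 2679 for *Actb* and 2658 for *Actg1*). These lengths are from GENCODE vM21, whose gene models differ from those of the deposited table for *Actc1* and *Acta2*. They reach to 114053548 and 34255590, whereas those of the table reach to 114052887 and 34255336. Per kilobase, *Acta1* stood at 503, 766 and 530 in CtrlCre samples and at 9886, 6686 and 4561 in Cpt1bcKO samples. *Actc1* stood at 18360, 15637 and 15096 against 12949, 12859 and 13672. The mean level per kilobase differed by 6444 for *Acta1* and by −3204 for *Actc1* (Cpt1bcKO minus CtrlCre).

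As a share of the summed actin level per kilobase, *Acta1* made up 2.59%, 4.55% and 3.25% in CtrlCre samples and 42.3%, 33.2% and 24.3% in Cpt1bcKO samples. *Actc1* made up 94.4%, 92.8% and 92.6% against 55.4%, 63.8% and 72.9%. The groups overlapped for neither gene, and the lowest *Acta1* share in Cpt1bcKO stood well above the highest in CtrlCre. The mean share of *Acta1* was 3.46% ± 0.997 and 33.2% ± 8.98 (SD, n = 3 each), a difference of 29.8 percentage points (SE 5.22). The mean share of *Actc1* was 93.3% ± 0.979 and 64.0% ± 8.76, a difference of −29.3 percentage points (SE 5.09). Both reached the smallest *P* that an exact two-sided permutation test of 3 against 3 samples allows, 0.10 (0.167 adjusted over the shares), so no share could pass 0.05.

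*Acta2* held 1.23%, 0.659% and 1.09% of the sum in CtrlCre samples and 0.448%, 0.303% and 0.320% in Cpt1bcKO samples, without overlap (exact permutation *P* = 0.10). *Actb* held 1.63%, 1.85% and 2.89% against 1.77%, 2.57% and 2.27%, and *Actg1* held between 0.136% and 0.233% in all samples, or 0.364% to 0.623% when levels were divided by uniquely placed read positions instead of length. The groups overlapped in both (exact permutation *P* = 0.9 for *Actb* and 0.3 for *Actg1*).

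**Figure D3:**
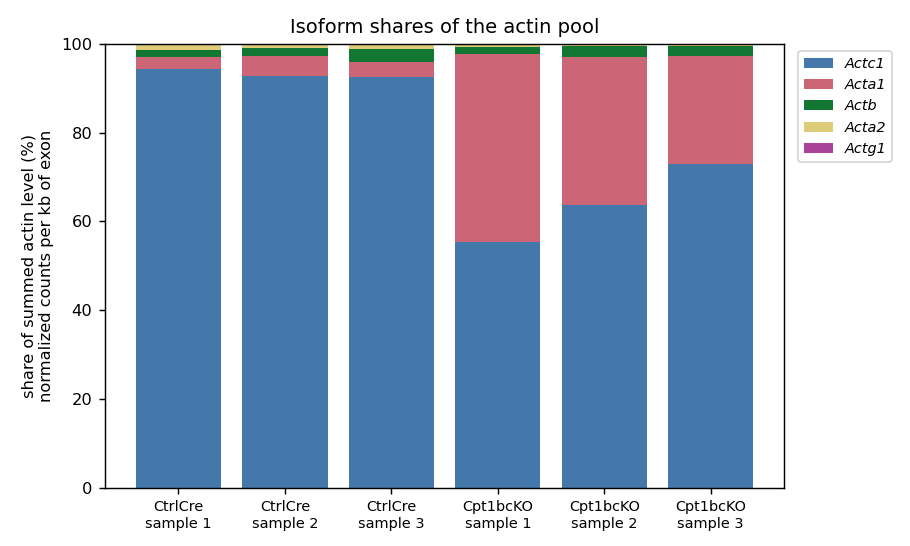
Share (%) of each actin in the summed normalized counts per kilobase of exon, as 1 stacked bar per sample. *Acta1* (red) takes 2.59% to 4.55% of the bar in CtrlCre and 24.3% to 42.3% in Cpt1bcKO samples, and *Actc1* (blue) takes 92.6% to 94.4% and 55.4% to 72.9%.

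The log2 ratio of *Acta1* to *Actc1* within a sample does not depend on the size factor. Per kilobase, it was −5.19, −4.35 and −4.83 in CtrlCre and −0.39, −0.94 and −1.58 in Cpt1bcKO samples. The difference of 3.82 (SE 0.422) was again at the smallest *P* of the exact permutation test, 0.10. In all 6 samples the cardiac form remained above the skeletal form, by 20.4 to 36.5 times in CtrlCre samples and by a geometric mean of 1.96 times in Cpt1bcKO samples, where it was lowest at 1.31 times in sample 1.

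The summed actin level per kilobase was 19450, 16849 and 16300 in CtrlCre and 23387, 20157 and 18762 in Cpt1bcKO samples. The groups overlapped, because CtrlCre sample 1 exceeded Cpt1bcKO sample 3. The difference was 0.24 on the log2 scale (SE 0.122, exact permutation *P* = 0.2), and 0.15 without Cpt1bcKO sample 1. With samples rescaled to the nuclear total it was 0.35, and the groups did not overlap (exact permutation *P* = 0.10). Among all normalized counts of nuclear genes outside rRNA, the actins made up 0.784% to 0.899% in CtrlCre and 0.920% to 1.19% in Cpt1bcKO samples. Of this, *Acta1* alone took 0.0218% to 0.0339% and 0.211% to 0.483%.

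The order of the levels per kilobase was *Actc1*, *Acta1*, *Actb*, *Acta2* and *Actg1* in all 6 samples. In CtrlCre, *Acta1* and *Actb* were not clearly separated, since *Acta1* was only 1.59, 2.46 and 1.12 times *Actb*, and without division by length it was above *Actb* in 1 of 3 samples. In Cpt1bcKO, it was 10.7 to 23.9 times *Actb*. *Acta2* and *Actg1* were also close in Cpt1bcKO, at ratios of 3.03, 1.86 and 1.38, and when levels were divided by uniquely placed read positions instead of length their order turned in 2 of the 3 samples.

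By level per kilobase among 12803 nuclear protein-coding genes, *Acta1* ranked at 212, 105 and 160 in CtrlCre samples and at 7, 9 and 13 in Cpt1bcKO samples. *Actc1* kept a rank between 2 and 4 in all samples. *Acta2* ranked at 486, 943 and 566 in CtrlCre and at 1044, 1611 and 1652 in Cpt1bcKO samples, and *Actb* between 155 and 368 in all of them.

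**Figure D4:**
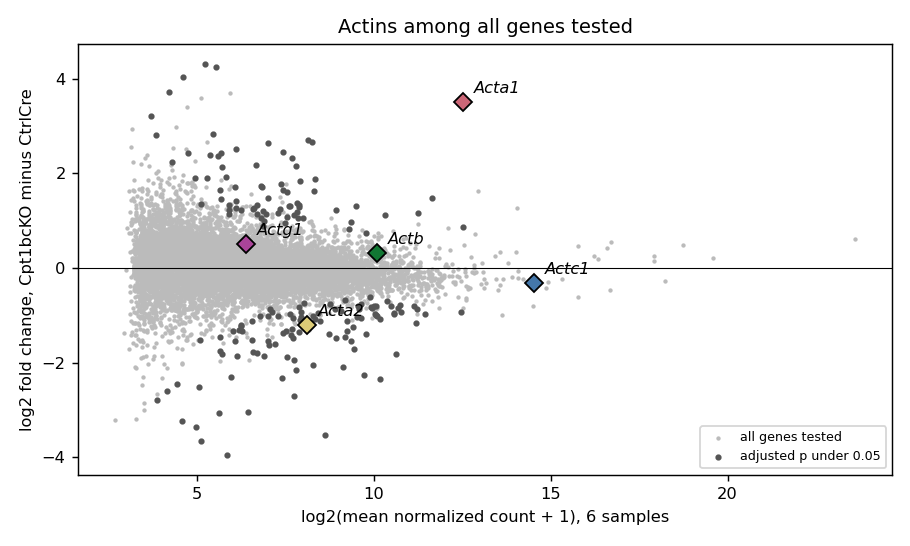
Log2 fold change (Cpt1bcKO minus CtrlCre) against the log2 mean normalized count plus 1 over 6 samples for the 11364 genes tested, in grey, with called genes in dark grey and the 5 actins as coloured diamonds. *Acta1* sits at 3.51, apart from genes of like abundance, and *Actc1* at −0.31 is the most abundant actin.

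The bases before the RefSeq start of the actin genes are shown because the SRF element there is one feature that some of the genes have in common. Of the 6 actins, 4 matched the RefSeq promoter sequences of GRCm38.p6, and an exact match to the CArG box was found in 3 of these. Each run is the 250 bases before the RefSeq start on the minus strand, with the CArG box in capitals. The RefSeq starts differ from the gene ends of the deposited table, so that the windows of *Actc1* and *Actg1* reach into the gene as the table gives it and those of *Acta1* and *Acta2* begin some bases beyond it, and all distances are from the RefSeq start.

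Acta1, chr8:123894776-123895025: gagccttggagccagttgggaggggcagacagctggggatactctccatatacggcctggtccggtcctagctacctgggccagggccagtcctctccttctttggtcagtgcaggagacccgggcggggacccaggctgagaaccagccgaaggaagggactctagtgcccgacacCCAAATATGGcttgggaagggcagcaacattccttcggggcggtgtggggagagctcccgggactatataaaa

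Actc1, chr2:114052876-114053125: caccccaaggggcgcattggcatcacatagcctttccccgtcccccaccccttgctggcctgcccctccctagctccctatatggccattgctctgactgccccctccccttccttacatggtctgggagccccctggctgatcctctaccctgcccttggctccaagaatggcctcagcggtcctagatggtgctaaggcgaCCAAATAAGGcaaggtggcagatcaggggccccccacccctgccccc

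Acta2, chr19:34255374-34255623: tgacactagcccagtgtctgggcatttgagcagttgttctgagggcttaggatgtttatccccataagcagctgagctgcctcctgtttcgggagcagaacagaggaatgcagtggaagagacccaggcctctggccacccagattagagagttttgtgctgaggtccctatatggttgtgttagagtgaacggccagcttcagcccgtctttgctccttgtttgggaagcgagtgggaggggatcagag

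Actg1, chr11:120348496-120348745: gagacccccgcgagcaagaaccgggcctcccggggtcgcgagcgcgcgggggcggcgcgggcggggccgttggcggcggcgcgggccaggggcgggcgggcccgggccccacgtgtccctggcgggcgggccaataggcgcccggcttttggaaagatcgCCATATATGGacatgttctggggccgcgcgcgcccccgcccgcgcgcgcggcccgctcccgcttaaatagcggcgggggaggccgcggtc

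The CArG box was searched as a run of 10 bases (CC, then only A or T, then GG) on both strands without mismatch. Runs that depart from this pattern at a single base were neither counted nor marked. Such runs are ccctatatgg in the windows of *Acta2* and *Actc1* and ccttgtttgg in that of *Acta2*, so the search does not show that *Acta2* lacks an SRF element. The exact match lay 73 to 64 bases before the start in *Acta1*, 47 to 38 bases in *Actc1* and 90 to 81 bases in *Actg1*. No exact match was in the window of *Acta2*. Among 32851 promoter windows of this length, 482 (1.467%) held an exact match. The MCAT element CATTCC, searched on both strands and known as a binding site of TEAD factors, was in *Acta1* and *Acta2* and in 12.642% of windows. TATAAA, searched likewise, was in *Acta1* and in 12.368% of windows, and none of these matches overlapped another. *Acta1* was called higher, whereas *Actc1* and *Actg1*, also with an exact match, and *Acta2*, without one, were not called. The part of SRF in these levels was not tested. A match of letters does not show that a factor was bound.

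*Srf* itself had 196, 152 and 210 normalized counts in CtrlCre and 211, 174 and 180 in Cpt1bcKO samples (log2 fold change 0.03, adjusted *P* = 0.969). Among 12 genes of SRF and its cofactors, 5 were higher and 7 lower. At an unadjusted *P* under 0.05 in limma, 1 was higher and 2 lower, against 6.66% and 7.22% of all genes. The only one of the 12 called was *Fhl2*, which encodes a LIM-domain protein that binds SRF. *Fhl2* had 3681, 3189 and 2895 normalized counts in CtrlCre and 1543, 1284 and 1504 in Cpt1bcKO samples, and fell by 1.17 on the log2 scale (SE 0.147, adjusted *P* = 0.00391). The call was lost with a single prior variance for all genes (adjusted *P* = 0.0698).

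*Myocd*, the myocardin coactivator of SRF, had 444, 459 and 490 against 248, 342 and 289 without overlap, but was not called (log2 fold change −0.67, adjusted *P* = 0.0737). *Gata4* went the other way, also without overlap, with 372, 339 and 375 against 447, 514 and 414, and was not called (log2 fold change 0.34, adjusted *P* = 0.348). The median of the list was −0.07 on the log2 scale beside −0.0013 for all genes, and 0.906% of all genes were called lower. With 1 sample left out, this median ran from −0.048 to −0.0087.

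Of 24 SRF target genes outside the actins, 21 were tested, with 9 higher and 12 lower and a median of −0.01 on the log2 scale, or −0.15 without CtrlCre sample 2 and 0.12 without CtrlCre sample 3. At an unadjusted *P* under 0.05, 2 were higher and 6 lower, against 6.66% and 7.22% of all genes. *Nppa*, the natriuretic peptide of the atrium and of the fetal ventricle, was the only one called, where 0.66% of all genes were called higher. It had 177, 93 and 144 normalized counts in CtrlCre and 683, 452 and 384 in Cpt1bcKO samples (log2 fold change 1.87, SE 0.269, adjusted *P* = 0.00917). It lost the call without Cpt1bcKO sample 2 (adjusted *P* = 0.0556) and with a single prior variance (0.0772), and without Cpt1bcKO sample 1 the number called in the list was 2, where that fit called 2.74% of all genes.

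*Tpm1*, the tropomyosin that lies along the actin filament, had 35121, 23378 and 30957 against 18989, 13662 and 18359, and its log2 fold change of −0.81 did not pass (adjusted *P* = 0.105). The immediate early genes *Egr1*, *Fos*, *Junb*, *Fosb* and *Ier2* had log2 fold changes of −0.64, −0.83, −0.42, −0.16 and 0.01, and none was called.

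Among the genes whose products fold, cap, turn over or modify actin, none was called, where 1.57% of all genes tested were called. Without Cpt1bcKO sample 1, 1 gene of monomer binding and filament turnover was called, and 2.74% of all genes were. All 15 genes of actin folding (the CCT chaperonin, prefoldin and a phosducin-like cofactor) were tested. Of these, 6 were higher and 9 lower (median −0.13 on the log2 scale). None was called or had an unadjusted *P* under 0.05 in limma, which 13.9% of all genes reached. The sign of this median depends on the scaling, and it was 0.04 when samples were rescaled to the nuclear total and 0.07 without CtrlCre sample 1. *Vbp1*, a prefoldin subunit, had the smallest *P* value of the list, with 237, 190 and 190 normalized counts against 183, 139 and 168 (log2 fold change −0.33, adjusted *P* = 0.442).

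Of the 20 tested genes of monomer binding and filament turnover, 16 were higher and 4 lower (median 0.24 on the log2 scale). None was called by limma, whereas 7 were higher and 2 lower at an unadjusted *P* under 0.05, which 6.66% and 7.22% of all genes reached in these directions. *Coro6*, a coronin of striated muscle, had 518, 651 and 603 normalized counts in CtrlCre and 761, 1110 and 969 in Cpt1bcKO samples (log2 fold change 0.67, adjusted *P* = 0.0969). *Wdr1*, a cofactor of cofilin in filament disassembly, had 503, 446 and 577 against 692, 756 and 810 (log2 fold change 0.57, adjusted *P* = 0.107). These 2 had the smallest *P* values of the list. *Limk2*, a kinase that inactivates cofilin, had a log2 fold change of 0.52 and *Cap2*, a cyclase-associated protein of muscle, one of −0.45 (adjusted *P* = 0.223 and 0.233).

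Of 21 tested genes of filament ends and nucleation, 10 were higher and 11 lower with a median of −0.01 on the log2 scale. None was called by limma. At an unadjusted *P* under 0.05, 2 were higher and 3 lower, against 6.66% and 7.22% of all genes. *Lmod2*, the leiomodin that lengthens cardiac thin filaments, had 9119, 4727 and 5653 normalized counts in CtrlCre and 4616, 3664 and 4048 in Cpt1bcKO samples (log2 fold change −0.61, adjusted *P* = 0.253). The formins *Fhod3*, *Diaph1* and *Fmnl2*, which nucleate or elongate filaments, had log2 fold changes of −0.39, 0.45 and 0.69 and were not called.

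Among 7 genes that modify actin, 5 were higher and 2 lower (median 0.32 on the log2 scale, or 0.17 without Cpt1bcKO sample 3). None was called by limma, and 1 had an unadjusted *P* under 0.05, which 13.9% of all genes reached in either direction. That was *Mical1*, a monooxygenase that oxidizes actin, with 42, 26 and 25 normalized counts in CtrlCre and 75, 54 and 52 in Cpt1bcKO samples (log2 fold change 0.96, adjusted *P* = 0.159). *Setd3*, the methyltransferase of actin histidine, was at −0.18 on the same scale and not called (adjusted *P* = 0.645).

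**Figure D5:**
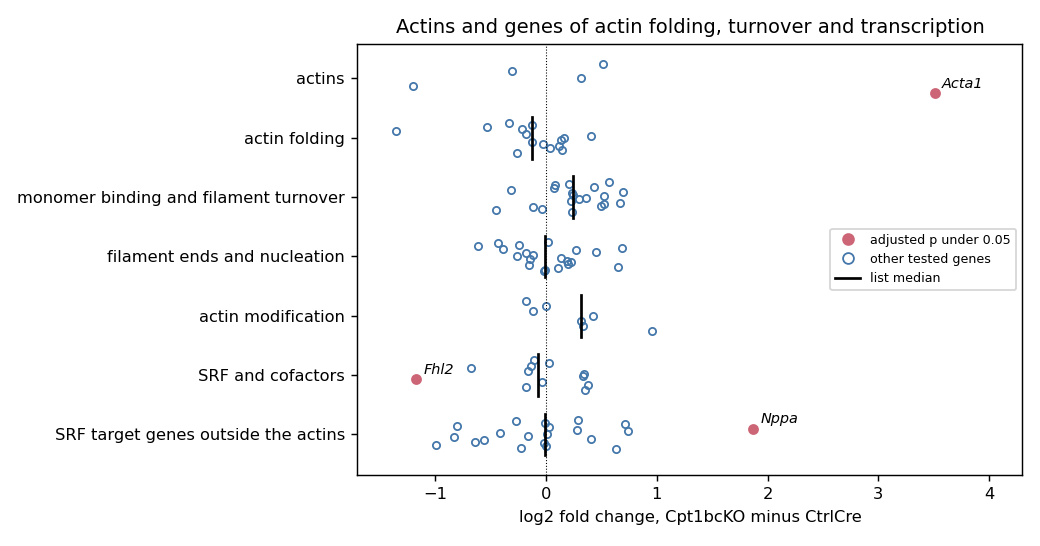
Log2 fold change (Cpt1bcKO minus CtrlCre) of each tested actin and of each tested gene in 6 lists of actin folding, turnover, filament ends, modification and SRF transcription. Filled red points are called genes, open blue points the other genes and black bars list medians, and only *Acta1* at 3.51, *Nppa* at 1.87 and *Fhl2* at −1.17 are called.

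The genes whose pattern over the 6 samples was most like that of *Acta1* were sought by Pearson's *r* of log2(value + 1) among the 6797 genes that averaged 50 or more, actins left out. The closest were *Memo1* (*r* = 0.995), *Tgm2* (0.991), *Cpxm2* (0.990), *Rusc2* (0.989) and *Ugp2* (0.989). The most opposite were *Ghr* (*r* = −0.999), *Arhgef17* (−0.996), *Gpr22* (−0.996), *Ppm1k* (−0.994) and *Slc44a2* (−0.994). These values are a description over 6 samples that fall into the 2 groups, and the samples share library and size factor.

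A high *r* did not mean a large change. *Memo1* had 138, 140 and 134 normalized counts against 180, 171 and 166, a log2 fold change of 0.32 (adjusted *P* = 0.395). *Cpxm2*, which encodes a carboxypeptidase-like protein, had 62, 87 and 71 against 499, 554 and 408, and rose by 2.72 on the log2 scale (adjusted *P* = 0.000151). *Ugp2*, the enzyme that forms UDP-glucose, had 1445, 1639 and 1410 against 4300, 3230 and 2696, with the same order of Cpt1bcKO samples as *Acta1* (log2 fold change 1.16, adjusted *P* = 0.0111).

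Among the opposite genes, *Ghr*, the growth hormone receptor, had 1384, 1268 and 1398 normalized counts in CtrlCre and 720, 766 and 850 in Cpt1bcKO samples (log2 fold change −0.80, adjusted *P* = 0.0172). *Gpr22*, a G-protein-coupled receptor of the heart, had 443, 299 and 368 against 35, 57 and 85 (log2 fold change −2.70, adjusted *P* = 0.00308). *Ppm1k*, the phosphatase that activates branched-chain keto acid breakdown, had 1301, 1226 and 1319 against 425, 451 and 604 (log2 fold change −1.39, adjusted *P* = 0.00338). Of these 10 genes, *Cpxm2*, *Arhgef17* and *Gpr22* kept their call under all 14 alternatives, whereas *Ghr*, *Slc44a2*, *Ugp2*, *Rusc2* and *Ppm1k* lost it under at least 1 and *Memo1* and *Tgm2* were never called.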

How the data were processed

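CMs were isolated by enzymatic perfusion of the heart with the atria removed, and total RNA was sequenced in 75-base single-end reads with a stranded kit. According to the methods of the study and the submitters' processing notes, reads were trimmed with Trimmomatic 0.36, aligned to mm10 (GRCm38) with STAR 2.5.4b and assigned to genes with featureCounts 1.6.0, leaving out reads on several genes or regions. The strand setting and the annotation release are not given in the sources used here. The deposited values are treated here as a score, because the authors divided gene counts by DESeq2 size factors and rounded them to whole numbers, so raw counts and the depth in reads are unknown. The authors' columns of means, fold changes and *P* values were not used, and 0 columns of per-sample values were left out.

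After a log2 transformation with a pseudocount of 1, groups were compared by limma 3.58.1 in R 4.3.3 (lmFit and eBayes with trend, group as the only term) in genes that reached 10 in 3 or more samples, and *P* values were adjusted by Benjamini–Hochberg over all genes tested. Shares, the ratio and the sum of the actins were compared by exact two-sided permutation, with adjustment over the shares. The study gives each sample as 1 mouse. Exon lengths and transcript windows come from GENCODE vM21 and promoters from RefSeq. Named genes were the actins, *Cpt1b*, the 5 genes most and the 5 least like *Acta1*, the called genes of each pathway list or otherwise up to 4 with the smallest *P* values, the highest gene of each marker list, and defining markers of lists that move with an actin. *Srf*, *Setd3*, *Myocd*, *Gata4*, *Tpm1*, *Egr1*, *Fos*, *Junb*, *Fosb* and *Ier2* were named after their values were seen. So were the marker genes *Synpo2*, *Stard10*, *Lum*, *Col1a1*, *Abcc9* and *Myh6*. The members and the gene lists were chosen with earlier results of these data known. On simulated data with 11032 genes, 37 of 106 genes changed 2-fold, 71 of 84 changed 4-fold and 4 of 10842 unchanged genes were called. Python 3.11.15 was used for all other steps. Alternatives were other scalings, pseudocounts, filters, prior variance, a replicate block, division of levels by length or by unique read positions, and leaving out each sample.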

Additional observations from a re-analysis of the deposited data

How the results depend on the processing

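*Acta1* kept its direction and its call under all 14 alternatives, and *Actc1*, *Actb* and *Actg1* kept their direction without a call under all 14. The number of called genes moved from 178 (75 higher, 103 lower) to 41 (23 higher, 18 lower) with a single prior variance for all genes. Leaving out 1 sample gave 40 to 305 called genes (17 to 137 higher, 23 to 168 lower), with 86, 76 and 67 without CtrlCre sample 1, 2 or 3, 305 without Cpt1bcKO sample 1 and 40 without Cpt1bcKO sample 2. In the same fits the log2 fold change of *Acta2* ran from −1.50 to −0.95. Same-numbered samples deviated from their group means with *r* of 0.376, 0.255 and 0.0684 across genes, which are not independent replicates, so the samples were taken to share only a number. Not every sample correlated best with its own number, since Cpt1bcKO sample 3 correlated best with CtrlCre sample 2 (0.147). With the replicate block, 603 of the 11364 genes tested were called (249 higher, 354 lower), among them *Acta2* (log2 fold change −1.20, adjusted *P* = 0.00247, limma). The block also called 3 of 20 tested genes of monomer binding and filament turnover and 2 of 21 of filament ends and nucleation. It called 1 of 7 genes of actin modification, 2 of 12 of SRF and cofactors and 3 of 21 SRF targets. Among tested markers, it called 2 of 8 of smooth muscle and pericytes, 4 of 9 of fibroblasts and 2 of 10 of ventricular CMs. The difference in the share of *Actb*, 0.0759 percentage points, turned to −0.171, −0.0607 and −0.109 without CtrlCre sample 1, CtrlCre sample 2 or Cpt1bcKO sample 2, over a range of −0.171 to 0.459. Rescaling to the nuclear total shifted all genes, whose median went from −0.0013 to 0.11 (log2), and the medians of filament ends and nucleation, SRF and cofactors, and SRF targets to 0.10, 0.04 and 0.11. Division by unique positions used transcripts, as no genome sequence was used here, and was chosen after seeing the data. The depth in reads is unknown, which limits low genes such as *Actg1*.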
